A study of Drosophila melanogaster with 23 samples.

Results

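Heads of adult flies carrying 1 mutant copy of blue cheese (bchs), the Drosophila ortholog of the human autophagy gene WDFY3, were compared with heads of flies carrying 1 mutant copy of a chromatin regulator: ash1 (ortholog of ASH1L), Chd1 (CHD2) or kis (CHD8). The genotypes are written WDFY3/+, ASH1L/+, CHD2/+ and CHD8/+, as the sample labels do. The comparison took the 4 WDFY3/+ libraries against the 12 libraries of the 3 chromatin genotypes, 16 of the 23 libraries of the series, and 4 wild type libraries served as a common baseline. All 4 mutants were heterozygotes for genes associated with autism, sampled as heads 5 to 7 days post-pupation, with 4 biological replicates per genotype.

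The mutants came from separate stocks (bchs58 for WDFY3/+, ash1-mimic for ASH1L/+, chd1[1] for CHD2/+ and kis1 for CHD8/+, with w1118 as wild type), so the mutated gene and the stock background cannot be told apart in any contrast. The RNA was from whole heads, which mix neurons, glia, eye, muscle, fat body and cuticle. The sex of the flies is not given in the sources used here. P-values below measure the spread between these libraries only.

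Bchs is a very large BEACH-domain protein that binds phosphoinositides and the autophagy machinery and helps bring protein aggregates to autophagosomes, the vesicles that deliver cargo to lysosomes. Ash1 is a histone methyltransferase of the trithorax group, Chd1 an ATP-dependent remodeler associated with transcribing genes, and Kismet a larger chromodomain remodeler, also of the trithorax group. The first protein acts in cytoplasmic clearance and the other 3 act on chromatin, so the contrast asks which transcripts set an autophagy heterozygote apart from chromatin heterozygotes.

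Each library was a 3′ mRNA-seq library, which reads one stretch at the end of a transcript, and values are the authors' normalized counts. The total per library ranged between 3982753 and 8558268 normalized counts. Taking the most frequent low value above 0 in each library as 1 read, 1 read was worth an estimated 0.63 to 1.94 normalized counts, so libraries differed in depth. Values of a few normalized counts therefore rest on a few reads.

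Libraries did not stand equally close to their genotype. After genotype and replicate number were fitted, the root mean square deviation over genes was 0.625 (log2) in CHD8/+ replicate 4 and in ASH1L/+ replicate 3, against 0.387 in the tightest library, ASH1L/+ replicate 1. The 18 tested cuticle and tracheal genes had a mean level of 6.25 to 7.38 (log2) in CHD8/+ replicates 2, 3 and 4 and in CHD2/+ replicate 2, and of 3.94 to 4.74 in the other 12 of the 16 libraries, all 4 WDFY3/+ libraries among them. The 23 tested muscle genes were also highest in these 4 libraries. Those list medians below that moved most are also given without these 4 libraries. That leaves CHD8/+ with replicate 1 alone, so calls from that fit are not given.

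Few transcripts separated WDFY3/+ from the average of the 3 chromatin mutants, and nearly all of them were lower in WDFY3/+. Of 9358 tested genes, 9 were called (0.0962%), meaning that the Benjamini-Hochberg adjusted p from limma was below 0.05 and the groups differed by 1.5-fold or more: 1 was higher in WDFY3/+ (0.0107%) and 8 were lower (0.0855%). The 8 lower transcripts were 3 neighbouring pseudogenes (CR43105, CR43186, CR43275), the phagocytosis receptor NimC1, the ribonuclease H2 subunit CG13690, the odorant-binding protein Obp56h, the predicted carboxylesterase CG4757 and the calcium-binding protein Swip-1. The 1 higher transcript was the antisense RNA asRNA:CR43767. At an unadjusted p under 0.05, 410 genes were higher and 557 lower, 967 in all, against 468 that a uniform distribution of p gives. Without WDFY3/+ replicate 1 or 4, 4 genes were called, and without replicate 3, 5. In these fits asRNA:CR43767 fell below the filter on low values and was not tested. The median difference over all genes was -0.03 (log2) with a median SE of 0.278.

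**Figure D1:**
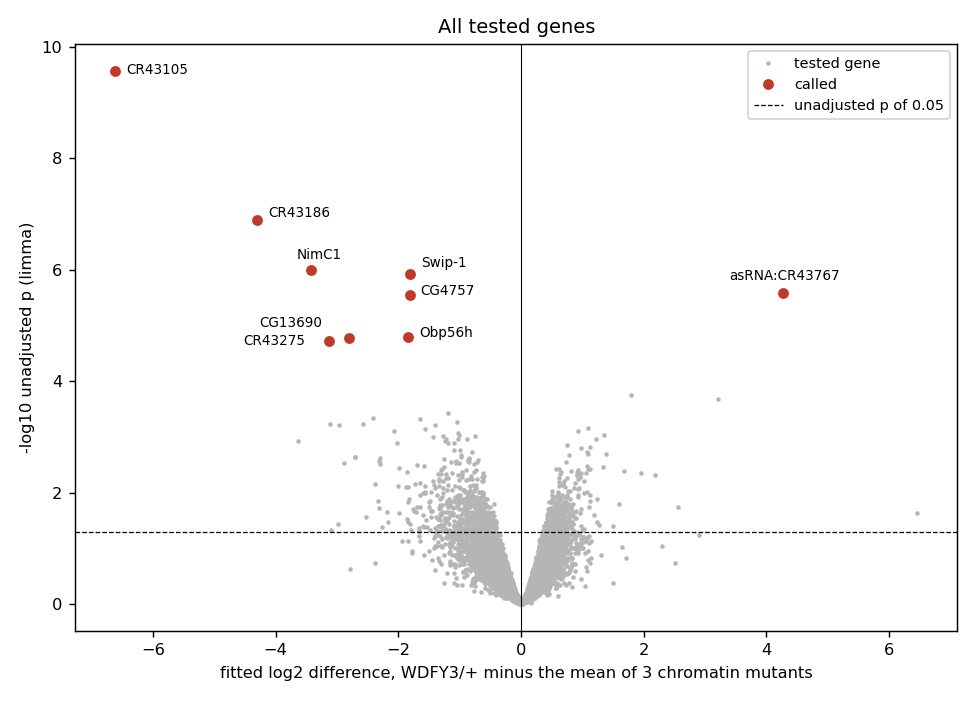
Fitted log2 difference between WDFY3/+ and the mean of ASH1L/+, CHD2/+ and CHD8/+ (x axis) against the negative log10 of the unadjusted limma p (y axis) for the 9358 tested genes, with the 9 called genes in red and named. Of the 9, 8 lie on the left, CR43105 farthest out at -6.61, and asRNA:CR43767 alone lies on the right at 4.27.

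The largest difference was at a small cluster of pseudogenes on chromosome arm 2R. CR43105 (2R:15374846-15375702, BDGP6, minus strand) had 4.38, 0, 2.64 and 7.65 normalized counts in the 4 WDFY3/+ libraries. The same transcript had 157, 212, 1670 and 252 normalized counts in ASH1L/+, 241, 329, 704 and 241 in CHD2/+, and 291, 183, 517 and 708 in CHD8/+. Every WDFY3/+ library lay far below every chromatin mutant library, with no overlap. The fitted difference was -6.61 ± 0.46 (log2, SE; adjusted p = 2.5e-06, limma), and it was of the same size against each genotype: -6.58 against ASH1L/+, -6.57 against CHD2/+ and -6.70 against CHD8/+. The wild type libraries had 2.06 to 7.49 normalized counts, in the range of WDFY3/+.

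CR43186 (2R:15375834-15376481) begins just past the end of CR43105 and had 0, 0, 1.74 and 1.55 normalized counts in WDFY3/+, against 10.98 to 144 (median 25.1) in the 12 chromatin mutant libraries. The difference was -4.30 ± 0.47 (adjusted p = 0.00063, limma). CR43275 (2R:15373890-15374721), on the other side of CR43105, had 0.728, 2.38, 0.879 and 0 in WDFY3/+, against 3.003 to 72.0 (median 12.9) in the chromatin mutants, a difference of -3.12 ± 0.51 (adjusted p = 0.020, limma). Neither pseudogene overlapped between the groups. Wild type libraries had 0 to 3.19 for CR43186 and 0 to 1.07 for CR43275, with WDFY3/+ values in or near those ranges. The adjusted p of CR43275 was 0.11 without the replicate block and 0.64 without replicate 3 of every genotype. It was between 0.071 and 0.30 without WDFY3/+ replicate 1, 3 or 4, and between 0.051 and 0.056 without ASH1L/+ replicate 2 or CHD2/+ replicate 1 or 3.

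The tested protein-coding genes within 10 kb of the cluster were not called. The 3 pseudogenes lie on the same strand, with the replication gene dup on one side and a further pseudogene, CR43276, on the other, both below the filter on low values. Of the next genes, Pms2, a mismatch repair gene, differed by 0.27 ± 0.25 and unc-5, a netrin receptor gene, by 0.42 ± 0.37 (adjusted p = 0.68 and 0.66, limma). Whether similar sequences elsewhere in the genome shared reads with these pseudogenes cannot be read from the values, so the 3 loci count as uncertain in source.

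NimC1 (2L:13973158-13976769, minus strand) encodes a Nimrod-family receptor through which haemocytes, the blood cells of the fly, take up bacteria. It had 0, 5.35, 0.846 and 1.43 normalized counts in WDFY3/+, against 7.33, 26.2, 27.6 and 23.0 in ASH1L/+, 32.8, 26.9, 19.8 and 13.8 in CHD2/+, and 16.3, 26.3, 31.8 and 78.5 in CHD8/+. All 4 WDFY3/+ libraries lay below all 12 others. The difference was -3.43 ± 0.44 (adjusted p = 0.0029, limma). Wild type stood between, at 2.62 to 8.95, and WDFY3/+ differed from it by -1.20 ± 0.52 (adjusted p = 0.63, limma). Without replicate 3 of every genotype the adjusted p against the mean of 3 was 0.088 (limma).

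The other haemocyte transcripts were not called. Of 17 tested haemocyte genes, NimC1 was the 1 gene called, 5 lay above 0, and the median was -0.11 (log2). Hemolectin (Hml), the clotting protein used as the standard haemocyte marker, had 483, 222, 129 and 244 normalized counts in WDFY3/+, against 50.4 to 831 (median 145) in the chromatin mutants, and the groups overlapped throughout (0.52 ± 0.34; adjusted p = 0.56, limma). The summed level of the 17 genes was 2084 to 2960 in WDFY3/+, against 2019 to 3317 in the chromatin mutants. Papilin (Ppn), an extracellular matrix protein, differed by -0.58 ± 0.24 and lozenge (lz), a Runx factor of crystal cells, by -0.68 ± 0.32, neither of them called. In whole heads, fewer cells of a type and less RNA per cell cannot be told apart. None of the 8 tested genes within 10 kb of NimC1 was called. Among them the Nimrod genes NimB3, NimB5, NimB1, NimB2 and NimB4 differed by -1.03, -0.60, -0.49, -0.17 and 0.21, and Hemese (He), a haemocyte surface protein gene 211 bases away, by -0.72.

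Swip-1 (2L:18977519-18987280, minus strand) encodes an EF-hand protein that binds calcium and bundles actin. WDFY3/+ libraries had 85.1, 92.5, 100 and 91.4 normalized counts, against 224, 270, 511 and 376 in ASH1L/+, 302, 623, 271 and 338 in CHD2/+, and 245, 436, 268 and 240 in CHD8/+. The 4 WDFY3/+ libraries lay close together and far below the lowest chromatin mutant library. The difference was -1.81 ± 0.23 (adjusted p = 0.0029, limma). In wild type the values were 105, 41.5, 64.4 and 56.0. The adjusted p was 0.077 without replicate 1 and 0.072 without replicate 4 of every genotype. The gene overlaps CG10431 on the opposite strand over 669 bases, and CG10431 differed by -0.34 ± 0.29 (adjusted p = 0.66, limma); whether strand was used in counting is not given in the sources used here.

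CG4757 (3R:11161207-11163498) is a predicted carboxylesterase gene that lies among UDP-glycosyltransferase (Ugt) genes. It had 14.8, 26.1, 17.6 and 11.98 normalized counts in WDFY3/+, against 102.2, 64.9, 84.5 and 59.5 in ASH1L/+, 43.7, 35.5, 43.3 and 50.5 in CHD2/+, and 58.4, 105, 54.6 and 85.2 in CHD8/+. WDFY3/+ was below all 12, closest to CHD2/+. The difference was -1.81 ± 0.25 (adjusted p = 0.0044, limma), called against ASH1L/+ (-2.10) and CHD8/+ (-2.05) and not against CHD2/+ (-1.29 ± 0.31; adjusted p = 0.14). The F test of a difference among the 3 chromatin mutants had an adjusted p of 0.35 (limma). Of the 4 tested Ugt neighbours within 10 kb, none was called, with differences of -1.03 to -0.14. Without WDFY3/+ replicate 1 or 4 the adjusted p was 0.071 and 0.095, and without replicate 1, 3 or 4 of every genotype 0.088 to 0.12.

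CG13690 (2L:418434-419652) was listed at 0 in 3 WDFY3/+ libraries and at 0.742 in the other, against 3.49 to 12.6 (median 7.61) in the 12 chromatin mutant libraries and 0 to 1.07 in wild type. The groups did not overlap, but at this depth the chromatin mutant values are also only a handful of reads. The difference of -2.80 ± 0.46 (adjusted p = 0.020, limma) was -0.77 (adjusted p = 0.39) where 10 in place of 1 was added before the logarithm, and the call was lost without any 1 of the WDFY3/+ libraries (adjusted p = 0.082 to 0.23). Its opposite-strand neighbour ebi, with which it shares 103 bases, differed by 0.24 ± 0.26 (adjusted p = 0.72).

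Obp56h (2R:19815554-19816204), named because it was called although it falls outside the rule for named genes, belongs to a tandem cluster of odorant-binding proteins, small secreted carriers of the antenna and taste organs. It had 36.9, 54.5, 95.5 and 23.2 normalized counts in WDFY3/+, against 59.9 to 595 (median 170) in the chromatin mutants and 66.7 to 96.7 in wild type. Here the groups overlapped: WDFY3/+ replicate 3 lay above ASH1L/+ replicates 1 and 4, and the call rested on the comparison within replicate numbers. The difference of -1.84 ± 0.30 had an adjusted p of 0.020 with the replicate block and 0.94 without it (limma). It was 0.071 to 0.25 without any 1 of the WDFY3/+ libraries and 0.051 without CHD2/+ replicate 1. Its paralogs Obp56a, Obp56d, Obp56e and Obp56g differed by -1.73, -0.41, -0.76 and -0.16, none of them called.

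The 1 transcript higher in WDFY3/+ was asRNA:CR43767 (2L:1158576-1159355, minus strand), an annotated antisense RNA. It had 30.6, 17.9, 14.1 and 29.1 normalized counts in WDFY3/+. In ASH1L/+, CHD2/+ and CHD8/+ it was listed at 0 in 9 of 12 libraries and reached 1.57 at most, and in wild type it was listed at 0 in 3 of 4 libraries, with 2.14 in the other. The 4 WDFY3/+ libraries were the only ones of the 20 with the transcript above a few normalized counts. Only through them did it pass the filter on low values. The fitted difference was 4.27 ± 0.59 (adjusted p = 0.0044, limma); since the comparison values are near 0, its size depends on the value added before the logarithm, and it was 5.10 with 0.5 and 1.65 with 10. It overlaps 695 bases of Tango14 on the opposite strand, and without strand in the counting, reads of the 2 genes cannot be told apart. Tango14 itself had 33.5, 30.04, 60.5 and 54.9 normalized counts in WDFY3/+, against 13.2 to 58.3 (median 43.8) in the chromatin mutants, and differed by 0.10 ± 0.26 (adjusted p = 0.89, limma).

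**Figure D2:**
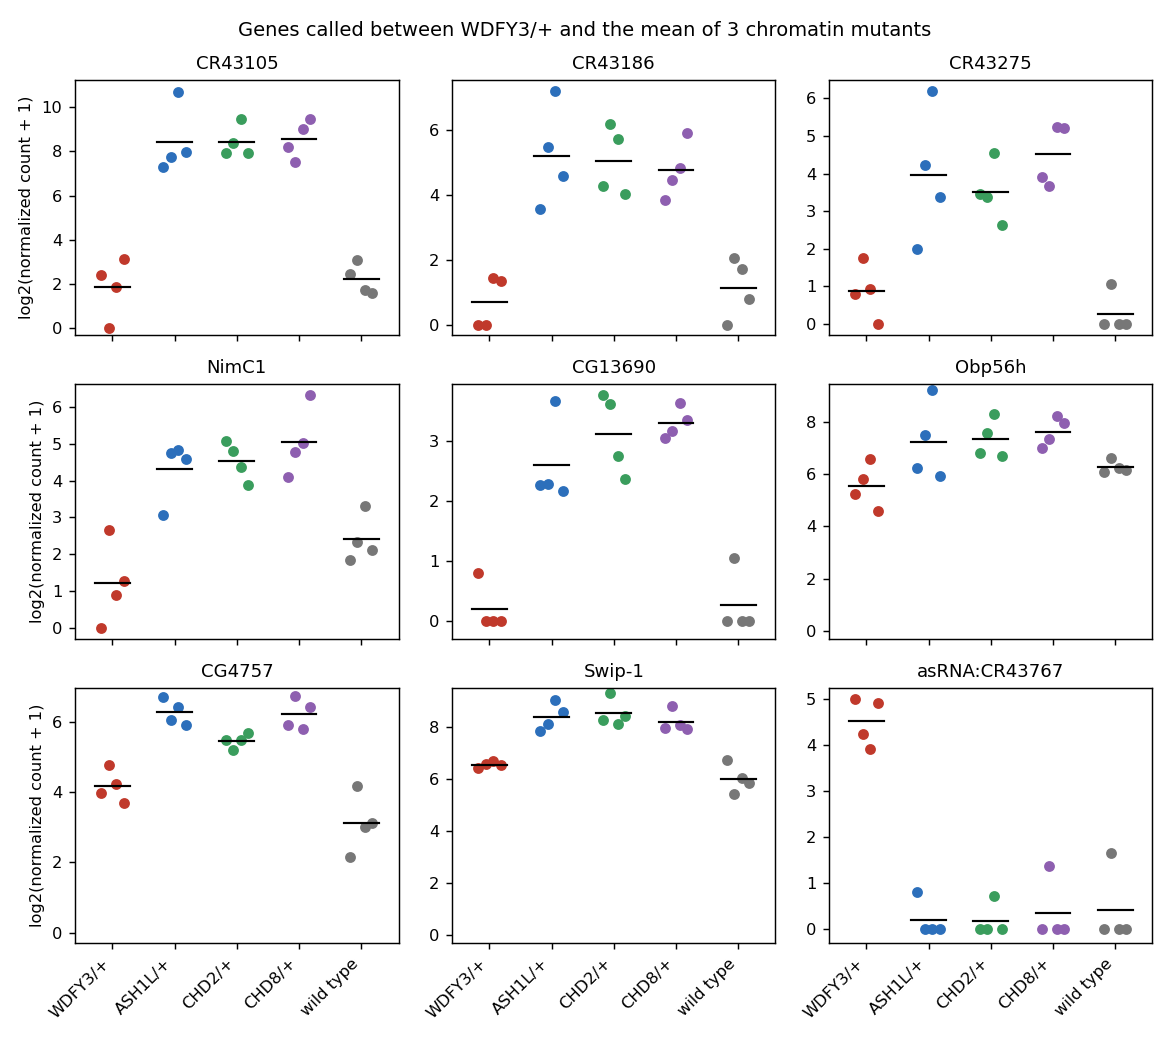
Level of the 9 called genes in every library, as log2(normalized count + 1) on the y axis, with WDFY3/+ at the left, then ASH1L/+, CHD2/+ and CHD8/+, and wild type at the right; each point is 1 library and each bar the mean of 4. In the 8 lower genes the WDFY3/+ mean lies nearer to the wild type mean than to the mean of the chromatin mutants, and in asRNA:CR43767 they stand above all other genotypes.

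The wild type libraries show on which side of the contrast each difference lay. In a fit of all 20 libraries, 7 of the 9 genes were higher in the mean of the 3 chromatin mutants than in wild type, a contrast in which 55 of 9588 genes were called (0.574%), 48 higher (0.501%) and 7 lower (0.0730%). None of these 7 genes was called between WDFY3/+ and wild type, where 24 were (0.250%), 22 higher (0.229%) and 2 lower (0.0209%). The mean of the 3 chromatin mutants exceeded wild type by 6.24 (log2) for CR43105, 3.85 for CR43186, 3.73 for CR43275, 2.87 for CG4757, 2.74 for CG13690, 2.35 for Swip-1 and 2.23 for NimC1. WDFY3/+ minus wild type was -0.37 for CR43105, -0.45 for CR43186, 0.60 for CR43275, 1.06 for CG4757, -0.06 for CG13690, 0.54 for Swip-1 and -1.20 for NimC1. Obp56h was called against neither. asRNA:CR43767 was the reverse case: WDFY3/+ exceeded wild type by 4.10 ± 0.65 (adjusted p = 0.0077, limma), while the mean of the chromatin mutants differed from wild type by -0.17 ± 0.53. These contrasts share their libraries with the one that chose the 9 genes, so they describe where the levels lie and are no separate evidence. The call of asRNA:CR43767 against wild type was lost without the replicate block and without wild type replicate 4, when 0 of the 9 genes were called. Without any 1 of the 4 WDFY3/+ libraries the gene fell below the filter on low values and was not tested, so those fits cannot check its call.

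**Figure D3:**
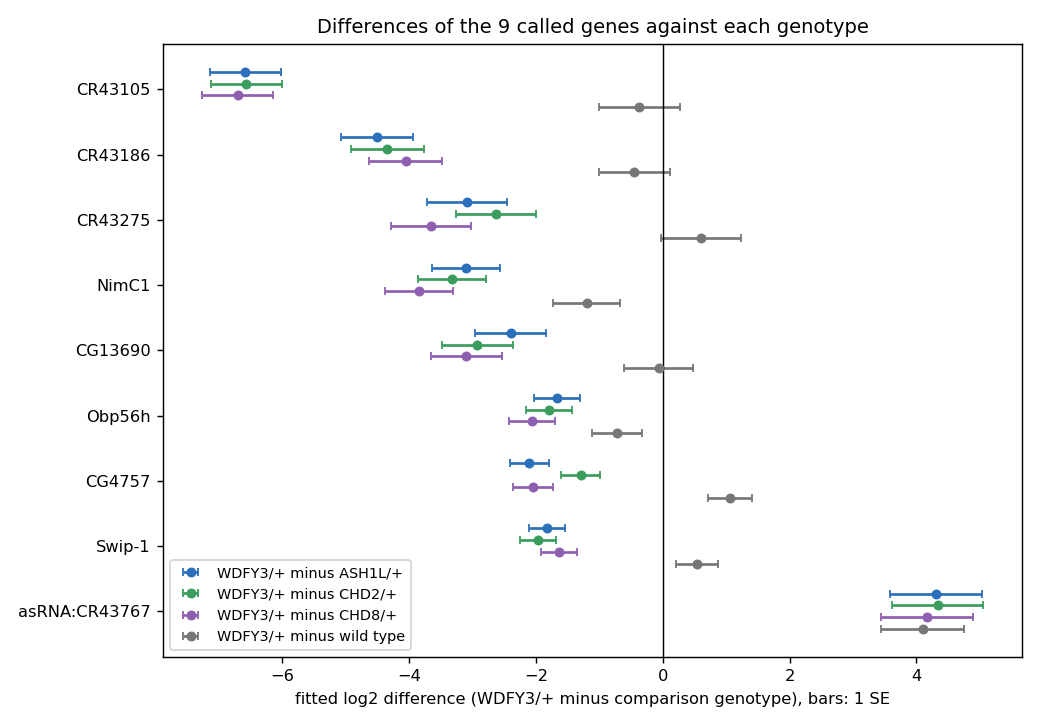
Fitted log2 difference of WDFY3/+ minus ASH1L/+, CHD2/+, CHD8/+ and wild type (x axis; points are estimates, bars 1 SE) for the 9 called genes (y axis). The coloured points against the chromatin mutants lie left of 0 in 8 genes, with the grey wild type point nearer 0; for asRNA:CR43767 all 4 points lie between 4.10 and 4.33.

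Of the 9 genes, 4 were on 2L, the arm that carries bchs, 4 on 2R, the other arm of the same chromosome, and 1 on 3R. Those on 2R include the neighbouring pseudogenes. The bchs gene lies at 2L:5907169-5922776, and the 4 called genes on 2L lay between 4.75 and 13.1 Mb from it. Chromosome arm 2R held 20% of the tested genes, 2L 17.8% and 3R 24.2%. No gene within 10 kb of bchs passed the filter on low values, so levels next to the locus were not tested. The part of linkage to the bchs chromosome in these calls was not tested either.

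Against the single chromatin mutants the counts were as small. WDFY3/+ differed from ASH1L/+ in 8 genes (0.0855%), 2 higher (0.0214%) and 6 lower (0.0641%). It differed from CHD2/+ in 8 (0.0855%), 3 higher (0.0321%) and 5 lower (0.0534%), and from CHD8/+ in 12 (0.128%), 2 higher (0.0214%) and 10 lower (0.107%). The 3 contrasts share the 4 WDFY3/+ libraries. In 5 genes the same call was made in all 3: asRNA:CR43767 was higher (0.0107%), and CR43105, CR43186, NimC1 and Swip-1 were lower (0.0427%). With no replicate block only 1 gene was called in all 3, and without replicate 1, 2 or 3 of every genotype also 1; the range over single libraries left out was 1 to 4. Without any 1 of the WDFY3/+ libraries, 2 to 4 genes were called against ASH1L/+, 2 to 3 against CHD2/+ and 1 to 3 against CHD8/+. With a WDFY3/+ library or a replicate number left out, asRNA:CR43767 fell below the filter on low values and was not tested.

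A few genes were called against 1 chromatin mutant only; all but Sdic3, CG13690 and CR43275 fall outside the rule for named genes and were chosen after their values were seen. CG13690, CR43275 and Obp56h, described above, were called against CHD8/+ (-3.10, -3.65 and -2.07) and not against ASH1L/+ or CHD2/+. Srg3 had 56.4, 185, 151 and 35.3 normalized counts in WDFY3/+, against 2.83, 2.37, 2.93 and 2.09 in CHD8/+ (4.63 ± 0.81; adjusted p = 0.035, limma). The same gene had 64.1 to 455 in ASH1L/+, 1.12 to 114.7 in CHD2/+ and 0.896 to 7.62 in wild type, so WDFY3/+ and ASH1L/+ were high together. lncRNA:CR44042 had 25.9 to 33.5 in WDFY3/+, against 76.2, 194, 192 and 93.1 in CHD2/+ (-2.08 ± 0.33; adjusted p = 0.025, limma). CHD2/+ was the outlying genotype there, since ASH1L/+, CHD8/+ and wild type had 17.5 to 70.0, 25.3 to 42.0 and 14.0 to 45.3. In both genes the 3 chromatin mutants also differed among themselves (F test, adjusted p = 0.029 each), 2 of 10 genes for which they did (0.107%).

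The remaining calls against 1 mutant only were those of CG12391, lncRNA:CR44645, CG8757, Sdic3, CG31775 and CG42586. Against CHD2/+, CG12391 was higher in WDFY3/+ by 1.34 ± 0.23 and lncRNA:CR44645 by 2.51 ± 0.41. Against ASH1L/+, CG8757 was lower by 1.95 on the log2 scale (WDFY3/+ minus ASH1L/+, -1.95 ± 0.33), and Sdic3, 1 of a set of near-identical tandem copies of a sperm dynein chain gene, was higher by 4.81 ± 0.81. Against CHD8/+, CG31775 and CG42586 were lower by 5.27 on the log2 scale (-5.27 ± 0.90 each), but their values are equal in every library, so they count as 1 signal from shared reads. Without the replicate block lncRNA:CR44645 kept its call (adjusted p = 0.033), and CG31775, CG42586, CG12391, CG8757, Srg3 and lncRNA:CR44042 did not.

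The contrast with CHD2/+ depended on 1 library that is in neither group. CHD8/+ replicate 4 enters it through the shared variance, the replicate terms and the filter on low values, which sets how many genes are tested. Without that library, 353 of 9311 genes were called between WDFY3/+ and CHD2/+ (3.79%), 269 higher (2.89%) and 84 lower (0.902%), all 8 earlier calls among them. With 1 library, or 1 replicate number, left out, this count ran between 1 and 353. The fit described here is therefore the extreme of that range and was chosen after its count was seen. Against the mean of 3 the same 9 genes were called without it (0.0967%), 1 higher (0.0107%) and 8 lower (0.0859%). Against ASH1L/+ 9 genes were called (0.0967%), 2 higher (0.0215%) and 7 lower (0.0752%), and against CHD8/+ 1 gene, lower (0.0107%). At an unadjusted p under 0.05 the full fit already placed 976 genes higher (10.4%) and 755 lower (8.07%) in WDFY3/+ than in CHD2/+. The contrast with ASH1L/+ had 178 higher (1.90%) and 249 lower (2.66%), and that with CHD8/+ 374 higher (4%) and 564 lower (6.03%). Among the 353 were 10 of the 30 tested neuronal genes, all higher in WDFY3/+ (33.3%), and 6 of 44 trithorax, Polycomb and remodeler genes, all higher (13.6%). In the full fit 0 genes of either list were called against CHD2/+. The 6 were ash1, Chd1, Iswi, kis, skd and trx. Of these, ash1, Chd1 and kis are the genes mutated in the chromatin genotypes, Chd1 that of CHD2/+ itself. The neuronal genes were brp, elav, futsch, nSyb, Rab3, stnA, stnB, Syt1, Syx1A and unc-13, which serve the active zone, vesicle release or the axon cytoskeleton, except elav, a neuronal RNA-binding protein. stnA and stnB share their reads. Of 23 antimicrobial peptide and Bomanin genes 4 were lower (DptA, DptB, Dro and Mtk), and of 33 autophagy genes 0 were called.

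None of the 4 mutated genes was called in the full fit. bchs had 286, 164, 183 and 351 normalized counts in WDFY3/+, against 121 to 390 (median 181) in the chromatin mutants and 131 to 300 in wild type. The values overlapped, and the difference was 0.27 ± 0.22 (adjusted p = 0.64, limma) against the mean of 3 and 0.17 ± 0.24 against wild type. Reads from the 3′ end need not report a lesion elsewhere in the gene, so this level does not check the label. Chd1 had 276 to 459 in WDFY3/+, against 204, 106, 99.8 and 162 in CHD2/+, 112 to 481 in ASH1L/+ and 114 to 349 in CHD8/+; all 4 CHD2/+ libraries lay below all 4 WDFY3/+ libraries (1.33 ± 0.33; adjusted p = 0.15 in the full fit, limma). ash1 had 40.2 to 143 in WDFY3/+, against 11.6 to 137 in ASH1L/+, with overlapping values (0.68 ± 0.45). kis had 795 to 3000 in WDFY3/+, against 485 to 2649 in CHD8/+, likewise overlapping (0.65 ± 0.34). Without CHD8/+ replicate 4, ash1, Chd1 and kis were all 3 called higher in WDFY3/+ than in CHD2/+, and bchs was not.

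Autophagy transcripts gave no call. Of 33 tested autophagy genes, 0 were called at the adjusted threshold in limma, 18 lay above 0, and the median was 0.06 (log2), against -0.03 over all genes. At an unadjusted p under 0.05, 6 of them were lower in WDFY3/+ (18.2%, against 5.95% of all genes) and 0 were higher. Atg4a, a protease that processes Atg8, had 268, 350, 609 and 440 normalized counts in WDFY3/+, against 363 to 1166 (median 696) in the chromatin mutants; 2 of 4 WDFY3/+ libraries fell below that range (-0.72 ± 0.20; adjusted p = 0.40, limma). Snap29, a SNARE of autophagosome fusion, differed by -0.62 ± 0.22, Atg7, the E1-like enzyme, by -0.97 ± 0.37 and Pi3K59F, the class III lipid kinase Vps34, by -0.59 ± 0.24, each with an adjusted p of 0.48. Atg8a, the ubiquitin-like protein of the autophagosome membrane, differed by -0.34 ± 0.27, and ref(2)P, the p62 ortholog that is degraded with its cargo, by -0.35 ± 0.20; these 2 were named for their role after the values were seen. Against wild type, Atg4a differed by -0.73 and Atg7 by -1.20, not called.

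The compartments that autophagy feeds into also gave no call. The 28 endosome and membrane traffic genes had a median of -0.08, the 30 lysosome and V-ATPase genes -0.05 and the 37 ubiquitin and proteasome genes -0.16, with 0 called in each by limma. At an unadjusted p under 0.05 these lists held 2 higher and 1 lower, 0 and 0, and 0 higher and 3 lower genes. In the first, dor, which encodes the Vps18 tethering subunit, differed by -1.19 ± 0.45 and Rab35 by 0.56 ± 0.21. The 22 heat shock and chaperone genes had a median of -0.44, with -0.01 against ASH1L/+, -0.47 against CHD2/+ and -0.61 against CHD8/+. Their mean level was 6.08 to 6.71 (log2) in WDFY3/+, against 8.23 in CHD8/+ replicate 3 and 6.10 to 7.09 in the other 11 chromatin mutant libraries. The median was -0.08 without the 4 libraries high in cuticle genes, which include that one, -0.30 without CHD8/+ replicate 3 alone and -0.29 without WDFY3/+ replicate 3 alone. Without the 4 libraries the medians of the autophagy, endosome, and ubiquitin and proteasome lists were -0.16, 0.01 and -0.10.

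With all libraries, the gene list farthest below 0 was that of antimicrobial peptides and Bomanins, the secreted effectors that the Toll and Imd pathways switch on after infection. Of 23 tested, 21 lay below 0 and the median was -1.02 (log2); none was called by limma at the adjusted threshold, and 10 were lower at an unadjusted p under 0.05 (43.5%, against 5.95% of all genes). Without the 4 libraries high in cuticle genes the median was -0.59, and the yolk and male reproductive list then lay lower, at -0.66 (-0.21 with all libraries). DptB had 105, 21.9, 3.31 and 1.598 normalized counts in WDFY3/+, against 2.52 to 1604 (median 127) in the chromatin mutants (-3.12 ± 0.72; adjusted p = 0.30). Dro had 709, 252, 158 and 133, against 64.8 to 5887 (median 1729) in the chromatin mutants (-2.32 ± 0.65; adjusted p = 0.40). DptA differed by -3.63 ± 0.91 and AttB by -2.38 ± 0.76. The WDFY3/+ libraries lay in the lower part of a very wide range, and ASH1L/+ replicate 4 was as low.

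This list varied between libraries of 1 genotype as much as between genotypes. Its mean level was 7.30 to 8.40 (log2) in WDFY3/+, 6.85 to 9.51 in ASH1L/+, 8.39 to 10.4 in CHD2/+, 8.16 to 9.81 in CHD8/+ and 7.06 to 9.46 in wild type, with replicate 4 the lowest in WDFY3/+, ASH1L/+, CHD2/+ and wild type. The median difference was -0.70 against ASH1L/+, -1.07 against CHD2/+, -1.09 against CHD8/+ and -0.68 against wild type. The 40 immune recognition and signalling genes upstream had a median of -0.09. Many of these peptides are made in the fat body, and the 28 fat body and metabolism genes had a median of -0.27, and of -0.50 without the 4 libraries high in cuticle genes.

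Among lists of 10 or more tested genes, the neuronal and chromatin lists had the highest medians. Of 30 neuronal and presynaptic genes 26 lay above 0 (86.7%, against 47.4% of all genes), with a median of 0.43 (log2), 0 called by limma, and 5 higher and 1 lower at an unadjusted p under 0.05 (16.7% and 3.33%, against 4.38% and 5.95% of all genes). The median was 0.07 against ASH1L/+, 0.69 against CHD2/+ and 0.43 against CHD8/+. elav, an RNA-binding protein of all neurons, had 2077, 1213, 1504 and 2779 normalized counts in WDFY3/+, against 622 to 2382 (median 977) in the chromatin mutants (0.70 ± 0.26; adjusted p = 0.48, limma). All 4 WDFY3/+ libraries exceeded all 4 CHD2/+ libraries (622 to 997), and the difference from CHD2/+ was 1.10 ± 0.31 (adjusted p = 0.17). Rab3, the synaptic vesicle GTPase, differed by 0.58 ± 0.23 and stnA, an endocytic adaptor, by 0.61 ± 0.26; stnA and stnB are read from 1 dicistronic transcript and have equal values. Csp, the vesicle chaperone, went the other way at -0.81 ± 0.25.

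Of 44 trithorax, Polycomb and remodeler genes 34 lay above 0 (77.3%, against 47.4% of all genes; median 0.31), with 8 higher (18.2%, against 4.38%) and 0 lower at an unadjusted p under 0.05 and 0 called by limma. Chd1 had the smallest p at 0.80 ± 0.27, and ash1 (0.85 ± 0.37), brm, the SWI/SNF ATPase (0.56 ± 0.23), and Trl, the GAGA factor (0.68 ± 0.30), followed. The list holds ash1, Chd1 and kis, the genes mutated in the 3 comparison genotypes, and its shares were not computed without them. These lists were written with earlier results of these data known. Here too the median was near 0 against ASH1L/+ (0.06) and higher against CHD2/+ (0.51) and CHD8/+ (0.37). The 14 glial genes had a median of -0.16, with 4 lower at an unadjusted p under 0.05 (28.6%, against 5.95% of all genes): alrm, an astrocyte marker (-0.96 ± 0.28), nrv2, a sodium pump subunit (-0.69 ± 0.25), Gat, the GABA transporter (-0.75 ± 0.31), and repo, the glial transcription factor (-0.56 ± 0.24). Without WDFY3/+ replicate 3 the glial median was -0.31 and without WDFY3/+ replicate 2 -0.09.

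The neuronal list moved with replicate number. Its mean level was 10.003, 9.42, 9.01 and 9.99 (log2) in WDFY3/+ replicates 1 to 4, against 10.05, 9.41, 8.97 and 10.01 in ASH1L/+, 9.45, 8.87, 8.65 and 9.44 in CHD2/+, and 9.71, 9.45, 8.93 and 8.91 in CHD8/+, with 9.84, 9.36, 9.21 and 9.74 in wild type. Replicates 1 and 4 were high and 2 and 3 low in every genotype but CHD8/+, whose replicate 4 was the lowest of its genotype. CHD2/+ lay below WDFY3/+ at each of the 4 replicate numbers.

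**Figure D4:**
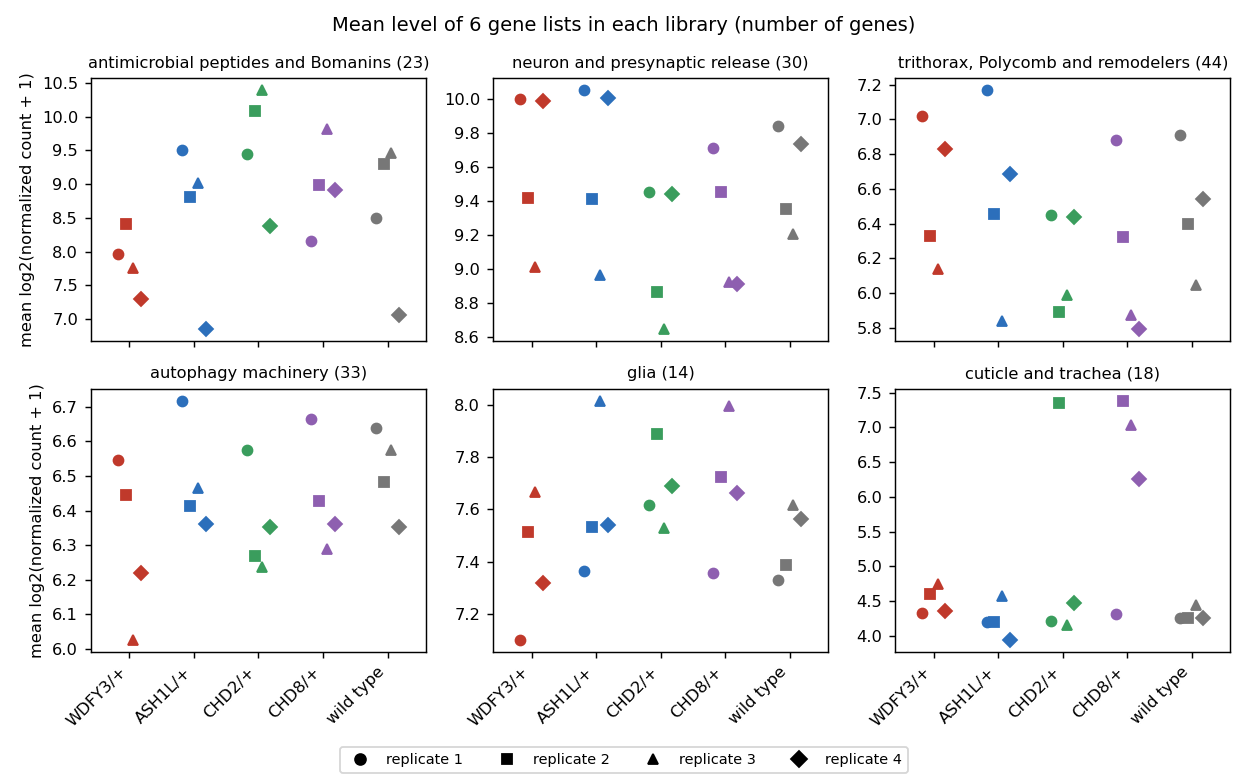
Mean log2(normalized count + 1) of 6 gene lists (y axis) in every library, with WDFY3/+ at the left and wild type at the right and the marker shape giving the replicate number. The neuronal list splits by replicate number in most genotypes, the cuticle list is high in CHD2/+ replicate 2 and CHD8/+ replicates 2 to 4, and the antimicrobial list is low in WDFY3/+ and in replicate 4 of ASH1L/+ and wild type; the WDFY3/+ values, 7.30 to 8.40, overlap those of other genotypes.

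Of 18 cuticle and tracheal genes 17 had a difference below 0 (median -0.67), none called by limma and 2 lower at an unadjusted p under 0.05 (11.1%, against 5.95% of all genes), and the 4 libraries named above stood apart in them. Without these 4 libraries the median was 0.23, above 0; without CHD2/+ replicate 2 alone it was -0.30 and without WDFY3/+ replicate 2 alone -0.31. The 23 muscle genes had a median of -0.27 with all libraries and 0.16 without the 4; without WDFY3/+ replicate 2 alone it was -0.08 and without CHD8/+ replicate 2 alone -0.14. The median of the cuticle and tracheal genes was 0.26 against ASH1L/+, -0.43 against CHD2/+ and -1.65 against CHD8/+. Acp1, a cuticle protein, had 6.59 to 172 normalized counts in WDFY3/+, against 2224, 3009 and 6675 in CHD8/+ replicates 4, 3 and 2, and 6276 in CHD2/+ replicate 2; the other 8 chromatin mutant libraries had 2.26 to 208. Without these 4 libraries the differences of the 9 called genes kept their direction wherever the gene passed the filter. Calls are not given for that fit, since CHD8/+ keeps only replicate 1.

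**Figure D5:**
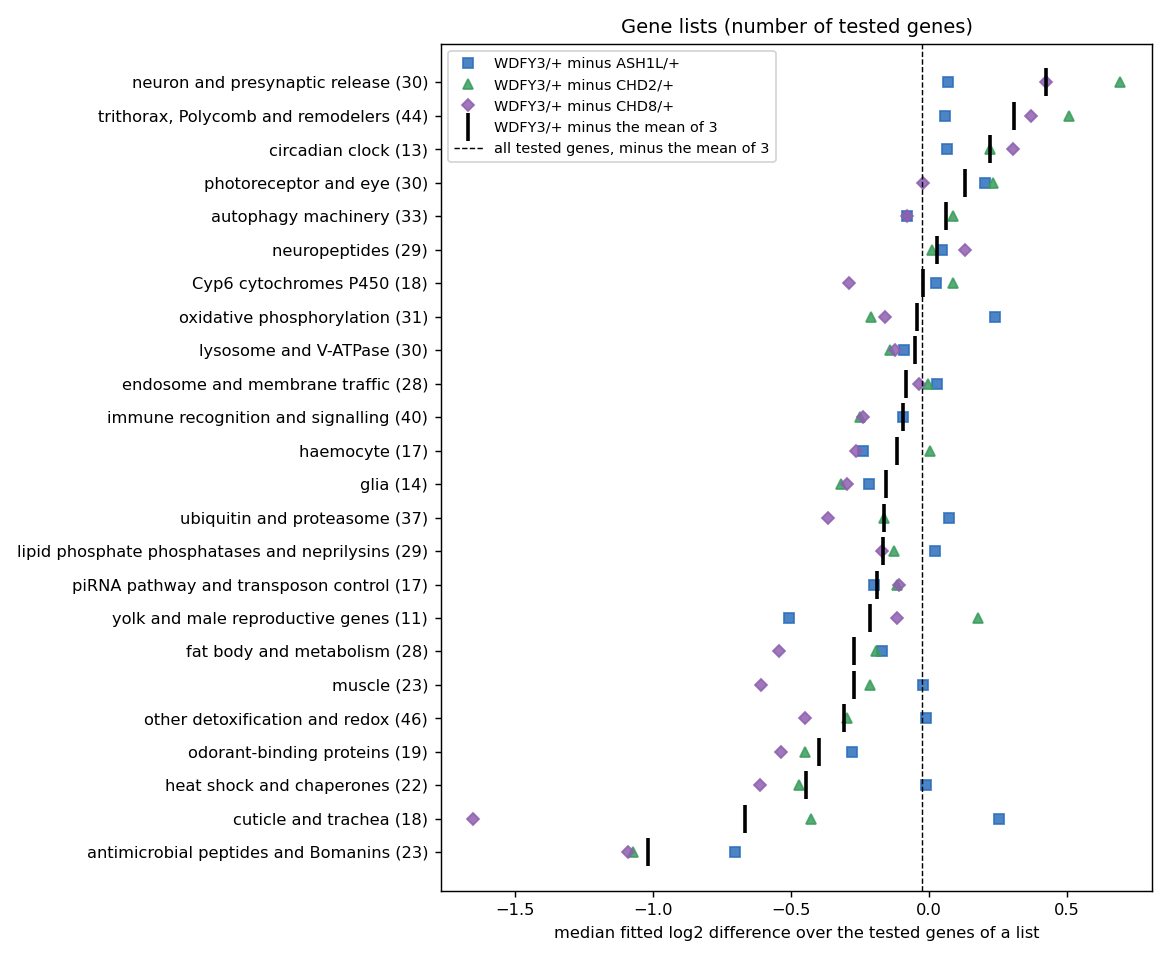
Median fitted log2 difference over the tested genes of each list of 10 or more tested genes (x axis), for WDFY3/+ minus each of ASH1L/+, CHD2/+ and CHD8/+ (coloured markers) and minus their mean (black bar), with the number of genes in brackets; the dashed line is the median of all tested genes, -0.03. The antimicrobial list lies farthest left at -1.02 and the neuronal list farthest right at 0.43, and the black bars of the autophagy, endosome and lysosome lists lie between -0.08 and 0.06.

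Further lists held single genes with a small p that were not called. The list of odorant-binding protein genes does not hold Obp56h, which was called. The 19 tested genes of that list had a median of -0.40 (-0.26 without ASH1L/+ replicate 3). Among them lush, the carrier for the male pheromone, had 2.20, 5.96, 0.881 and 0 normalized counts in WDFY3/+. The chromatin mutants had 4.29 to 46.5 (median 12.7), and the difference was -2.42 ± 0.54 (adjusted p = 0.30, limma). Obp19b went the other way (1.02 ± 0.35). Of 46 other detoxification and redox genes 9 were lower (19.6%, against 5.95% of all genes) and 1 higher (2.17%, against 4.38%) at an unadjusted p under 0.05, led by Ugt35B1 (-0.74 ± 0.22), GstE1 (-1.12 ± 0.38) and, higher, Cyp4d1 (1.12 ± 0.39). The 18 Cyp6 cytochrome P450 genes had a median of -0.02 (-0.30 without the 4 libraries high in cuticle genes) and the 31 oxidative phosphorylation genes -0.04.

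Beyond the called genes, the smallest p-values among transcripts higher in WDFY3/+ belonged to lncRNA:CR32553, Sdic3, gkt and CG4393. lncRNA:CR32553, on the X chromosome, had 25.9, 74.2, 58.4 and 27.4 normalized counts in WDFY3/+, against 5.08 to 22.6 (median 10.4) in the chromatin mutants and 3.62 to 16.6 in wild type. Its difference from wild type was 2.14 ± 0.43 (adjusted p = 0.040, limma, 20 libraries). All 4 WDFY3/+ libraries lay above all 12 (1.80 ± 0.36; adjusted p = 0.17, limma). gkt, a tyrosyl-DNA phosphodiesterase, had 44.95 to 129 in WDFY3/+ and shared that level with CHD8/+ (31.0 to 105), while ASH1L/+ had 19.4 to 34.7 and CHD2/+ 20.9 to 39.5 (1.09 ± 0.26; adjusted p = 0.32, limma), and wild type had 17.3 to 23.0 (WDFY3/+ minus wild type, 1.94 ± 0.32; adjusted p = 0.010). CG4393 differed by 0.93 ± 0.22 (adjusted p = 0.32).

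In all, 6 genes had every WDFY3/+ library above the other 12 (0.0641% of tested genes) and 9 had every one below (0.0962%). The 6 were asRNA:CR43767, lncRNA:CR32553, Ids, Trc8, CG4364 and lncRNA:roX1; the 9 were the called lower genes except Obp56h, with CG5181 and cpa. lncRNA:roX1, a male-specific RNA of dosage compensation, had 4689, 4591, 4544 and 3823 normalized counts in WDFY3/+, against 1185 to 3378 (median 2220) in the chromatin mutants and 2432 to 6888 in wild type (1.07 ± 0.29 against the mean of 3; adjusted p = 0.40, limma). Its partner lncRNA:roX2 had 137 to 468 in WDFY3/+, against 139 to 890 in ASH1L/+, 240 to 786 in CHD2/+ and 227 to 527 in CHD8/+. The yolk protein gene Yp1, transcribed in females, had 25460 to 60510 in WDFY3/+, against 25730 to 135200 in ASH1L/+, 21060 to 69930 in CHD2/+ and 27410 to 90970 in CHD8/+. Of lncRNA:roX1, lncRNA:roX2 and Yp1, lncRNA:roX1 was the 1 whose groups did not overlap, and the part of sex composition in other differences was not tested.

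Of 6 genes named from the study's text, none was called between WDFY3/+ and the mean of the chromatin mutants. CG11426, a lipid phosphate phosphatase gene, had 35.9, 27.6, 25.8 and 33.3 normalized counts in WDFY3/+, against 27.2 to 43.7 (median 35.0) in the chromatin mutants and 118 to 435 in wild type; the 4 mutants shared 1 level below wild type (-0.17 ± 0.21 between WDFY3/+ and the mean of 3; adjusted p = 0.76, limma). Nepl21, a neprilysin-like peptidase gene, had 27.2 to 138 in WDFY3/+, against 43.8 to 144 in the chromatin mutants and 153 to 362 in wild type (-0.20 ± 0.31; adjusted p = 0.81). CREG encodes a glycoprotein that the paper places in endosomes and lysosomes and describes as possibly also secreted. Its values were 38.8 to 133 in WDFY3/+, against 24.0 to 182 in the chromatin mutants and 23.6 to 63.1 in wild type (0.00 ± 0.25). Behind this mean, WDFY3/+ differed by 0.39 from ASH1L/+, 0.17 from CHD2/+ and -0.57 ± 0.31 from CHD8/+, none of them called. CHD8/+ exceeded wild type in CREG by 1.44 ± 0.32 (adjusted p = 0.043, limma), and WDFY3/+ did by 0.87 ± 0.32 (adjusted p = 0.56). Cyp6a23, a cytochrome P450, differed by -1.07 ± 0.48 and Pepck2, a gluconeogenic enzyme, by -0.70 ± 0.34, both with overlapping groups. CG11426 and Nepl21 were picked by the study on the libraries of these mutants. CREG, Ect3, Pepck2 and Cyp6a23 came from a double heterozygote, whose libraries were not used here, set against wild type and each single heterozygote. Wild type and CHD8/+ libraries are used here too, so that choice may not be independent of these values.

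Ect3, a beta-galactosidase gene, was the exception in pattern. It had 2.997, 5.996, 3.56 and 0 normalized counts in WDFY3/+, against 67.1, 39.3, 29.1 and 35.8 in ASH1L/+ and 47.3, 85.6, 51.3 and 32.4 in CHD8/+, while CHD2/+ had 3.49, 3.77, 1.90 and 75.96. WDFY3/+ lay below every ASH1L/+ and CHD8/+ library and at the level of 3 of the 4 CHD2/+ libraries, and wild type had 0 to 7.53. The difference from the mean of 3 was -2.96 ± 0.69 (adjusted p = 0.30, limma), and without CHD2/+ replicate 4 it was -2.51 (adjusted p = 0.0097), past the threshold.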

How the data were processed

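Heads of WDFY3/+, ASH1L/+, CHD2/+, CHD8/+ and wild type flies were profiled with a 3′ mRNA-seq kit. Per the methods, the authors quantified transcripts with Salmon (version 0.12.0 in the submitters' processing notes) on BDGP6, summed them to genes and scaled them with DESeq2 size factors. The deposited signal values are those normalized counts, 17559 genes in each table; raw counts were not analysed here, so no count model was used. Columns of the authors' own comparisons were not used.

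Genes that reached 10 normalized counts in 4 or more of the 16 libraries were tested on log2(normalized count + 1) with limma 3.58.1 (R 4.3.3), with 1 mean per genotype, the replicate number as a block and a variance trend, which leaves 9 residual degrees of freedom. P-values were two-sided with Benjamini-Hochberg adjustment over all tested genes. The thresholds for a call were 0.05 for the adjusted p and 1.5-fold for the change. A fold change on this scale understates the change of genes with few normalized counts. Wild type contrasts came from a fit of 20 libraries (9588 genes). Totals per library and the worth of 1 read were read from the values. Gene symbols and positions were matched for 17253 genes, and 713 of 737 entries of 26 gene lists matched the tables. The code was tested on simulated data. Figures were drawn with matplotlib 3.10.9, and tables were handled with Python 3.11.15 and pandas 2.3.3.

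Named were the mutated genes, called genes whose WDFY3/+ libraries lay outside the other 12, genes called against all 3 chromatin mutants, up to 4 genes per list by p, genes the study named, and the 5 smallest p in each direction; others are marked where they appear, and list members named for their role and the neighbours and paralogs of called genes also fall outside the rule. The members and lists were chosen with earlier results of these data known. Alternatives changed the block, grouping, scaling, filter, added value, variance model, thresholds and libraries.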

Additional observations from a re-analysis of the deposited data

Results flagged for a closer look

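In 95 groups of 4 libraries over 19 genes, 10 held a library whose gap to the nearest other passed Dixon's limit at the 95% level. Chance gives about 1 in 20 groups, but the 10 cannot be set against that rate. A group with a single value above 0 passes the limit whatever that value is. Of the 10, 7 were groups with a single value above 0. For asRNA:CR43767 these were ASH1L/+ replicate 1 (0.751 normalized counts), CHD2/+ replicate 3 (0.637), CHD8/+ replicate 2 (1.57) and wild type replicate 2 (2.14). For CG13690 they were WDFY3/+ replicate 1 (0.742) and wild type replicate 2 (1.07), and for CR43275 wild type replicate 2 (1.07). CG13690 also had 11.7 in ASH1L/+ replicate 3, with 3.49 to 3.85 in the other ASH1L/+ libraries. NimC1 had 7.33 in ASH1L/+ replicate 1, with 23.0 to 27.6 in the others. Ect3 had 75.96 in CHD2/+ replicate 4, with 1.90 to 3.77 in the others.

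Of 17 genes called against at least 1 chromatin mutant, 2 differed among the 3 by the F test in limma: Srg3 and lncRNA:CR44042, with an adjusted p of 0.029 each.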

How the results depend on the processing

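The difference of the 9 genes from the mean of 3 kept its direction in all 163 values under other settings (145 called) and in all 165 with libraries left out (133 called); in settings where asRNA:CR43767 or CG13690 fell below the filter there was no value. CG13690, CR43186 and CR43275 lost their call with 10 added, and Obp56h and CR43275 without the replicate block. At least 50 normalized counts left 5 genes called against the mean, 4 against ASH1L/+, 5 against CHD2/+, 7 against CHD8/+ and 3 against all 3. Library weights gave 23, 44, 179, 24 and 8 in that order. Without the 4 libraries with the highest cuticle markers CHD8/+ keeps only replicate 1, so counts of calls from that fit are not given. With all libraries 1 member of the lists was called. The cuticle level as a covariate left 1 against CHD8/+ and 1 against all 3. With 10 added, 6 were called against CHD8/+ and 2 against all 3. With all 20 libraries 26 were called against CHD2/+, and with no filter 5. Leaving out a genotype gave 2 against ASH1L/+ and 73 against CHD2/+ without CHD8/+, and 5 against CHD8/+ without CHD2/+. Quantile normalization gave 17 genes that differed among the 3 chromatin mutants.

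Without the replicate block, 7 genes were called against the mean, 3 against ASH1L/+, 4 against CHD2/+, 3 against CHD8/+ and 1 against all 3, with 0 that differed among the 3 and 0 of the 9 called between WDFY3/+ and wild type. Deviations of same-numbered libraries from their genotype means correlated at 0.26 to 0.772 between WDFY3/+ and ASH1L/+. The range was 0.284 to 0.521 for CHD2/+ and 0.0911 to 0.638 for CHD8/+. Among all libraries of the 3 chromatin mutants, the best match of 3 of 4 WDFY3/+ libraries had their own number. Best matches within each pair of genotypes were not counted. The labels do not say what a number shares.

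With 1 library, or 1 replicate number, left out, counts ran between 3 and 11 against the mean, 1 and 9 against ASH1L/+, 1 and 353 against CHD2/+ (353 without CHD8/+ replicate 4), 1 and 17 against CHD8/+, 1 and 4 against all 3, 0 and 36 among the 3 chromatin mutants, 1 and 2 for list members, and 0 and 1 for the 9 genes between WDFY3/+ and wild type. CREG, at -0.003 against the mean, ranged between -0.244 and 0.155 with libraries left out and was 0.083 with quantile normalization; Nepl21, at -0.20, ranged between -0.466 and 0.192 with libraries left out (0.192 without WDFY3/+ replicate 4). A test with DESeq2 was not run, since the values are not raw counts. Values of a few normalized counts rest on a few reads.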
